A study of Mus musculus with 9 samples.

Results

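The VEGF and angiopoietin axis was examined in whole osteosarcoma tumors through 10 genes, named by their symbols in the deposited count table. All 10 were present among its 55367 genes. They comprise the VEGF ligands Vegfa, Vegfb and Vegfc, the VEGF receptors Flt1, Kdr and Flt4, the angiopoietin ligands Angpt1 and Angpt2, their receptor Tek, and the endothelial adhesion molecule Pecam1. RNA-Seq was compared between 4 p53-driven tumors (genotype Col2.3-Cre/TrpP53fl/+) and 5 Myc-knockin tumors, whose label gives c-MycT58A behind a Lox-Stop-Lox (LSL) cassette, with Cre and p53fl/+. Both groups therefore carried a floxed p53 allele over a normal one and a Cre driven by the osteoblast promoter Col2.3, and the knockin added a Cre-activated Myc with the T58A change. The tumors arose spontaneously, and ages are not given for the sequenced animals in the sources used here. The paper reports an earlier median time to sacrifice for the Myc-knockin than for the p53 model. Age and genotype therefore cannot be told apart in these groups. Recombination is directed to cells with Col2.3 activity, so blood vessels in both models are host tissue.

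VEGF-A binds the receptors encoded by Flt1 and Kdr, and Kdr carries most of the signal for endothelial growth, while VEGF-C acts mainly through Flt4 on lymphatic vessels. Angiopoietin 1 activates the Tie2 receptor, encoded by Tek, and steadies mature vessels. Angiopoietin 2 competes for the same receptor and is made by endothelium that is sprouting or regressing. In growing bone, vessel invasion and bone formation are coupled, and osteoblasts themselves secrete VEGF-A.

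No label ties a column of the table to a numbered sample, and tumors are therefore called by their column names. The names F187, F325, F331, F368, M408 and M624 are those of cell lines that the study's supporting data list by genotype, and the columns were taken as tumors of that genotype. M351, M9 and M664 were assigned from the letter M alone. Total counts were between 2716322 and 17073285 per tumor. In 4 libraries, F187, M351, M408 and M9, satellite repeats took between 23.1% and 80.9% of the counts, against at most 0.0242% in the other 5. Reads on chemosensory receptor genes, which bone should not express, gave an estimate of genomic background of 0.596% to 23.8% of the remaining counts in those 4 libraries and at most 0.0668% in the others. M624 and M664 held at most 9.32 counts of Rn7sk per 1000000 counts outside the satellites, and the other 7 at least 8858. Rn7sk is a small nuclear RNA that lacks a poly(A) tail. The targeted gene followed the labels, with Myc at 577 ± 391 CPM (SD, n = 5) in Myc-knockin and 54.3 ± 11.3 CPM (SD, n = 4) in p53-driven tumors, without overlap. CPM here are counts per 1000000 of the library size after TMM normalization by edgeR. The bone collagen gene Col1a1 was at 67771 ± 21234 CPM (SD, n = 4) in p53-driven and 8492 ± 7158 CPM (SD, n = 5) in Myc-knockin tumors. Bglap, the osteocalcin gene that defines mature osteoblasts, was at 54.0 ± 29.6 CPM (SD, n = 4) and nearly absent in the Myc-knockin tumors, at 1.52 ± 1.84 CPM (SD, n = 5).

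Because the study examined miR-17-5p and miR-20a-5p, which the Mir17hg transcript carries, the 3′ UTRs of the 10 genes were searched for the 7 bases that pair with their seed. The mature sequences in RefSeq (GRCm38.p6), with the seed, bases 2 to 8, in capitals, are the same in that part:
mmu-miR-17-5p: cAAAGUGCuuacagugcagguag
mmu-miR-20a-5p: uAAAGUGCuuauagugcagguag
The longest annotated 3′ UTR in GENCODE M21 (mm10) held a match, GCACTTT, in 11.7% of 21028 genes. Among the 10 genes it was found once, in Vegfa, at position 162 of a 3′ UTR of 1865 bases, and not in the others. Nrp2, a VEGF co-receptor that was added to the search after its values were seen, held 2 matches in a 3′ UTR of 3325 bases. The sites are shown on the strand of the transcript with the match in capitals:
Vegfa chr17:46018680-46018706: tcttcgaggaGCACTTTgggtccggag
Nrp2 chr1:62796050-62796076: cctcgattttGCACTTTttttctcctc
Nrp2 chr1:62798135-62798161: gcgtcacggaGCACTTTttgttgttgt
A match describes the sequence and does not show that the site is used. Mir17hg itself, also outside the rule for named genes, was at 14.4 ± 4.70 CPM (SD, n = 5) in Myc-knockin and 2.73 ± 2.24 CPM (SD, n = 4) in p53-driven tumors.

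Between the groups, none of the 10 genes was called by edgeR, for which a fold change above 1.5 and an adjusted p below 0.05 were required. This rule called 5.27% of the 15365 genes tested, 2.26% as higher (348 genes) and 3% as lower (461) in Myc-knockin. The split was 626 higher and 345 lower with upper-quartile scaling and 1549 higher and 1121 lower in DESeq2. The median over all genes lay between 0.03 with unscaled library sizes and 0.24 with upper-quartile scaling, and of the 10 genes only Tek changed sign between scalings. All 10 had passed the filter on low counts. Fitted values were higher in Myc-knockin for 5 of them and lower for the other 5. An unadjusted p under 0.05 was reached by 5 of the 10, Vegfa, Vegfc, Kdr, Angpt1 and Angpt2, and by 26.8% of all genes tested. DESeq2 called 1 of the 10, Angpt1, beside 17.4% of all genes, and limma-voom none beside 10.8%. The groups overlapped for each of the 10 genes, while they did not overlap for 13% of the genes tested. The median log2 fold change was -0.16 over the 10 genes and 0.14 over all genes tested. In these whole tumors, fewer cells of a type and less RNA per cell cannot be told apart.

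**Figure D1:**
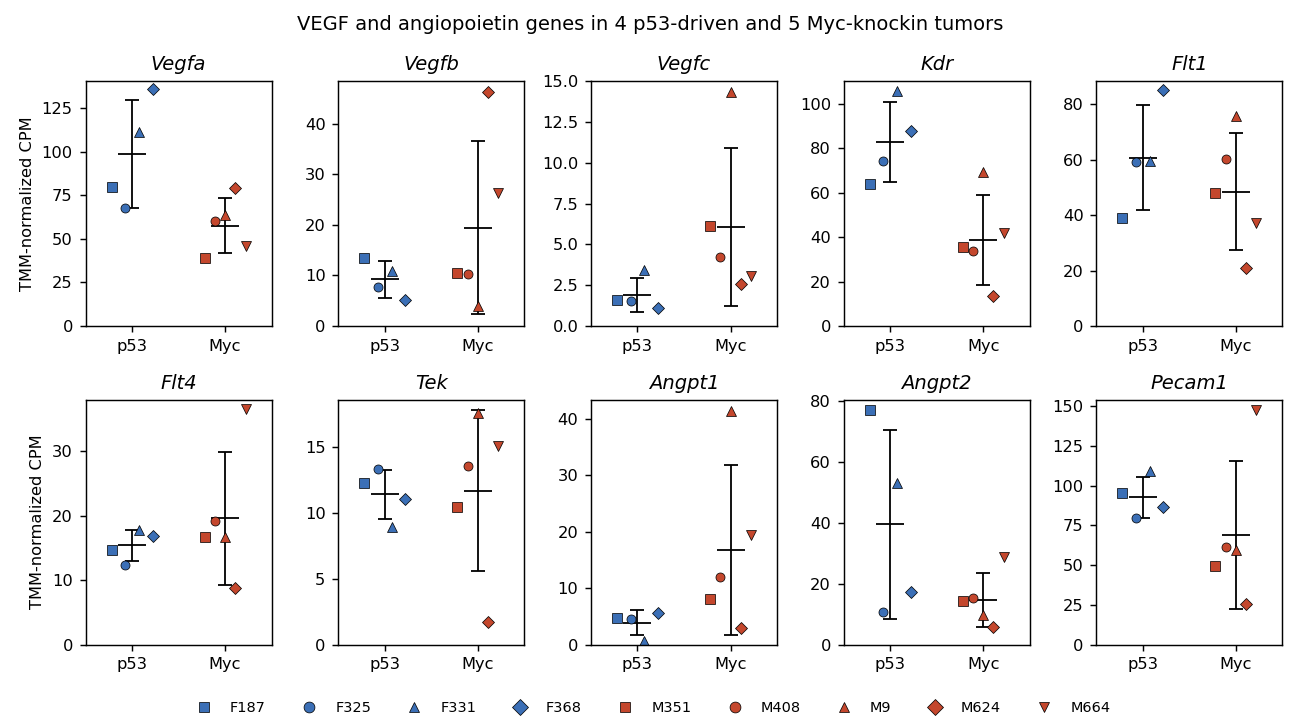
TMM-normalized CPM (vertical axes, from 0) of the 10 genes in the 4 p53-driven (blue) and 5 Myc-knockin (red) tumors. Each symbol is 1 tumor, and the bars show the mean and SD. Every panel has overlapping groups, and Angpt1, Vegfb and Vegfc have the widest spread among the Myc-knockin tumors relative to their mean.

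The ligand Vegfa, the main inducer of vessel growth, lies on chromosome 17 of mm10 from 46016993 to 46032369 (ENSMUSG00000023951). Its level was 79.8 CPM in F187, 67.9 in F325, 112 in F331 and 136 in F368. In the Myc-knockin tumors it was 38.8 CPM in M351, 60.4 in M408, 63.7 in M9, 79.4 in M624 and 45.9 in M664. The 4 lowest values were all Myc-knockin, and only M624 lay above the lowest p53-driven tumor. The means were 57.6 ± 15.9 CPM (SD, n = 5) in Myc-knockin and 98.8 ± 30.8 CPM (SD, n = 4) in p53-driven tumors. A log2 fold change of -0.78 (standard error 0.30) did not pass (edgeR adjusted p = 0.131, DESeq2 0.0767). Vegfa had the steadiest difference of the 10, between -0.91 and -0.61 over 19 other settings and subsets of tumors.

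Vegfb encodes a ligand of FLT1 that is abundant in muscle and heart (ENSMUSG00000024962, chromosome 19 from 6982473 to 6987651). It was 13.4 CPM in F187, 7.70 in F325, 10.8 in F331 and 5.11 in F368. The Myc-knockin tumors had 10.5 CPM in M351, 10.3 in M408, 3.98 in M9, 46.3 in M624 and 26.3 in M664. M624 and M664 alone exceeded the p53-driven range, and they are the libraries nearly without Rn7sk. edgeR gave a log2 fold change of 1.13 (standard error 0.61, adjusted p = 0.263). Without M624 and M664 it was -0.05 (adjusted p = 0.954). Without the 4 libraries with satellite reads it was 2.21 and passed (edgeR adjusted p = 0.0172), a comparison of 3 p53-driven tumors with M624 and M664 only. The difference in Vegfb was therefore found in these 2 libraries and not in M351, M408 and M9, which were assigned the same genotype. No label says what sets the 2 libraries apart, and no p53-driven library was nearly without Rn7sk. The cause was not tested.

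Vegfc, the lymphatic growth factor (ENSMUSG00000031520, chromosome 8 from 54077606 to 54187096), was the least counted of the ligands, with 4 to 71 counts per tumor. It was 1.58 CPM in F187, 1.56 in F325, 3.46 in F331 and 1.09 in F368. It was 6.16 CPM in M351, 4.21 in M408, 14.3 in M9, 2.55 in M624 and 3.07 in M664. All Myc-knockin tumors were above 3 of the 4 p53-driven tumors, and F331 lay within their range. In edgeR, Vegfc had a log2 fold change of 1.57 (standard error 0.67, adjusted p = 0.163), which was 0.47 (adjusted p = 0.621) without the 4 libraries with satellite reads. The highest Myc-knockin values came from M9 and M351, where background accounted for an expected 16.7% and 27.3% of the 18 and 10 Vegfc counts. With background subtracted from every gene the log2 fold change was 1.72 (adjusted p = 0.153).

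Among the receptors, Kdr encodes VEGFR2, the main signaling receptor of blood endothelium (ENSMUSG00000062960, chromosome 5 from 75932827 to 75978458). It was 64.0 CPM in F187, 74.4 in F325, 106 in F331 and 87.9 in F368. In the Myc-knockin tumors it was 35.7 CPM in M351, 33.9 in M408, 69.3 in M9, 13.4 in M624 and 41.6 in M664. Of these only M9 was above a p53-driven tumor, F187, which had the lowest value of its group. For Kdr the log2 fold change was -1.12 (standard error 0.39, edgeR adjusted p = 0.104, DESeq2 0.0550). It was -1.42 and passed without M9 (edgeR adjusted p = 0.0383), the library with the largest genomic background. In no other setting did Kdr pass, and its log2 fold change stayed negative, between -1.67 and -0.81.

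Flt1 encodes VEGFR1, which binds VEGF-A tightly and also has a soluble form that gene-level counts do not separate (ENSMUSG00000029648, chromosome 5 from 147561604 to 147726011). It ranged from 39.1 to 85.1 CPM in the p53-driven and from 21.0 to 75.7 CPM in the Myc-knockin tumors. Flt1 had a log2 fold change of -0.34 (standard error 0.37, edgeR adjusted p = 0.588). It was 0.07 without M624 and M664 and -1.20 without the libraries with satellite reads, neither past the threshold.

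Flt4 encodes VEGFR3, the receptor for VEGF-C on lymphatic endothelium and on sprouting blood vessels (ENSMUSG00000020357, chromosome 11 from 49609263 to 49652739). Its level was 14.6 CPM in F187, 12.4 in F325, 17.7 in F331 and 16.8 in F368. It was 16.6 CPM in M351, 19.2 in M408, 16.7 in M9, 8.73 in M624 and 36.6 in M664. Here M624 was the lowest and M664 the highest of all 9 tumors. Flt4 had a log2 fold change of 0.36 (standard error 0.39, edgeR adjusted p = 0.587), which was 0.0082 (adjusted p = 0.990) without M664 and 0.63 (adjusted p = 0.279) without M624.

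Angpt1 (ENSMUSG00000022309, chromosome 15 from 42424723 to 42676977), made chiefly by cells around vessels, showed the largest fold difference of the 10. It was 4.74 CPM in F187, 4.51 in F325, 0.692 in F331 and 5.59 in F368. In the Myc-knockin tumors it was 8.0 CPM in M351, 11.9 in M408, 41.4 in M9, 2.90 in M624 and 19.4 in M664. With the exception of M624, every Myc-knockin tumor was above every p53-driven tumor. Angpt1 had a log2 fold change of 2.09 (standard error 0.78), which missed the threshold in edgeR (adjusted p = 0.120) and passed in DESeq2 (2.12, adjusted p = 0.0324). Over the 19 other settings it lay between 1.47, without M9, and 2.43. Counts were low, 8 in F331, 12 in F187 and 13 in M351. Of the counts in F187 and M351, 30.8% and 44.7% were expected as background. An antisense gene, Gm17473, shares 737 exonic bases with Angpt1, and it had 15 counts over all 9 tumors.

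Angpt2 (ENSMUSG00000031465, chromosome 8 from 18690263 to 18741562) differed in the other direction. It was 77.0 CPM in F187, 10.7 in F325, 53 in F331 and 17.4 in F368, so that the p53-driven tumors themselves varied widely. It was 14.2 CPM in M351, 15.4 in M408, 9.56 in M9, 5.6 in M624 and 28.8 in M664. Angpt2 had a log2 fold change of -1.39 (standard error 0.61, edgeR adjusted p = 0.169, DESeq2 0.102). Without F187, the tumor with the highest level, it was -0.88 (adjusted p = 0.393), and without all 4 libraries with satellite reads -0.64 (adjusted p = 0.626). Angpt2 lies opposite to Mcph1, with which it shares no exonic base.

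Their common receptor Tek (ENSMUSG00000006386, chromosome 4 from 94739289 to 94874976) had a log2 fold change of 0.01 (standard error 0.53, edgeR adjusted p = 0.992). It ranged from 8.91 to 13.3 CPM in the p53-driven tumors and from 1.71, in M624, to 17.5, in M9, in the Myc-knockin tumors. The sign depended on the setting, and the widest values were -0.37 and 0.38. Pecam1 encodes CD31, an adhesion molecule of endothelium that platelets and some leukocytes also carry (ENSMUSG00000020717, chromosome 11 from 106654217 to 106750628). It was 95.6 CPM in F187, 79.3 in F325, 109 in F331 and 86.3 in F368. It was 49.2 CPM in M351, 61.5 in M408, 59.8 in M9, 25.5 in M624 and 148 in M664. Of the Myc-knockin tumors, 4 lay below all p53-driven tumors and M664 above them all. The log2 fold change was -0.42 (standard error 0.43, edgeR adjusted p = 0.555), which became -0.90 (adjusted p = 0.108) without M664, -0.14 (adjusted p = 0.843) without M624 and -0.05 (adjusted p = 0.961) without the libraries with satellite reads.

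**Figure D2:**
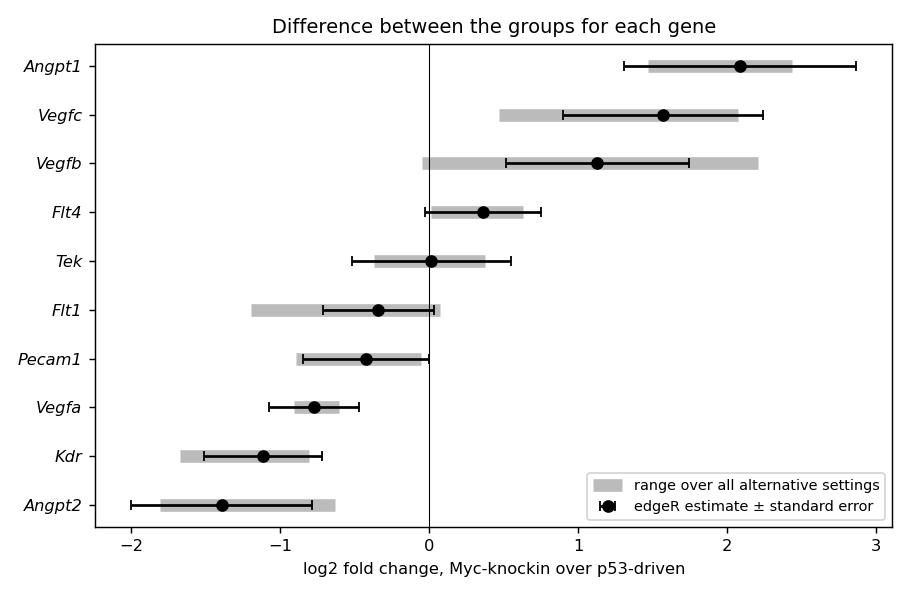
Log2 fold change of the 10 genes (horizontal axis, Myc-knockin over p53-driven), with edgeR's estimate and standard error as points and bars. The grey bands span the values over 19 other settings and subsets of tumors. Angpt1 is highest at 2.09 and Angpt2 lowest at -1.39, and the bands of Vegfb, Flt1 and Tek cross 0.

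Per kilobase of exon, Vegfa had the highest level of the 10 in both groups, at 23.1 ± 7.19 CPM per kilobase (SD, n = 4) in p53-driven and 13.5 ± 3.72 (SD, n = 5) in Myc-knockin tumors. In the p53-driven tumors it was followed by Pecam1 (14.9), Angpt2 (10.7), Kdr (9.19), Vegfb (5.77), Flt1 (4.49), Tek (2.41), Flt4 (1.87), Vegfc (0.785) and Angpt1 (0.746), as mean CPM per kilobase. Vegfa was above Pecam1 in 4 of these 4 tumors, whereas the levels of Angpt2 and Kdr could not be ordered, with Angpt2 above Kdr in 2. Vegfc was above Angpt1 in only 1 of the 4 although its mean was higher. In the Myc-knockin tumors the order per kilobase was Vegfa, Vegfb (12.1), Pecam1 (11), Kdr (4.29), Angpt2 (3.99), Flt1 (3.59), Angpt1 (3.21), Vegfc (2.48), Tek (2.47) and Flt4 (2.38). Here Vegfb was above Pecam1 in only 1 of 5 tumors, Pecam1 above Kdr in 5 of 5, and the other neighbors exchanged places between tumors. Angpt1, the last of the 10 in p53-driven tumors, ranked at 7 in Myc-knockin tumors.

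Ratios between genes of the same library do not depend on the normalization, and 5 of them were compared by two-sided exact permutation tests, whose smallest p with 5 tumors against 4 is 0.0159. The p values adjusted over the 5 ratios are given beside them. The ratio of Angpt2 to Angpt1 counts, a measure of the balance between the competing Tie2 ligands, was 15.6 in F187, 2.35 in F325, 72.2 in F331 and 3.09 in F368. In the Myc-knockin tumors it was 1.74 in M351, 1.29 in M408, 0.238 in M9, 1.93 in M624 and 1.48 in M664. Every Myc-knockin tumor had a lower ratio than every p53-driven tumor, although F325 and M624 were close. On the log2 scale the ratio was 0.12 ± 1.25 (SD, n = 5) in Myc-knockin and 3.25 ± 2.29 (SD, n = 4) in p53-driven tumors. The difference of -3.13, a geometric mean 8.74-fold lower, had an exact permutation p of 0.0159 (adjusted 0.0397). With genomic background subtracted it was -3.24 (exact permutation p = 0.0317, adjusted 0.0794), and the groups then overlapped, with M351 at 2.52 above F325 at 2.36. The difference was between -3.80 and -2.15 with single tumors left out, the smallest without F331. The exact permutation p was then 0.0286 or 0.0357, the smallest that the test can give with 1 tumor fewer. Adjusted, these were 0.0714 and 0.0893. M9 had the lowest ratio with only 12 Angpt2 counts, 37.9% of them expected as background.

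The ratio of Flt4 to Pecam1 counts was 0.155 in F187, 0.156 in F325, 0.162 in F331 and 0.195 in F368. It was 0.342 in M351, 0.314 in M408, 0.285 in M9, 0.343 in M624 and 0.248 in M664. Again the groups did not overlap in the counts as deposited. The log2 ratio was -1.72 ± 0.20 (SD, n = 5) in Myc-knockin and -2.59 ± 0.16 (SD, n = 4) in p53-driven tumors, a difference of 0.87, or 1.83-fold (exact permutation p = 0.0159, adjusted 0.0397). The lowest Myc-knockin ratio, in M664, came from 848 Flt4 counts. In M9 and M351, 48.3% and 34.0% of the Flt4 counts were expected as background, and with background subtracted the difference was 0.68 (exact permutation p = 0.0317, adjusted 0.0794). M9 then had a ratio of 0.168, within the p53-driven range of 0.133 to 0.195. With single tumors left out the adjusted p was between 0.0714 and 0.0893. The exact permutation p was then 0.0286 or 0.0357, again the smallest that the test can give. Without the 4 libraries with satellite reads the log2 difference was 0.77, a value with no test. With the mean of 19 endothelial markers in place of Pecam1 it was 0.52 (exact permutation p = 0.0159, adjusted over 4 ratios 0.0635).

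The other 3 ratios overlapped between the groups. Kdr to Pecam1 was between 0.670 and 1.02 in p53-driven tumors and between 0.282 and 1.16 in Myc-knockin tumors, a log2 difference of -0.60 (exact permutation p = 0.159). Relative to the 19 endothelial markers, the log2 difference of Kdr was -0.95 (exact permutation p = 0.0317, adjusted over 4 ratios 0.0635). Flt1 to Pecam1 differed by 0.25 and Tek to Pecam1 by 0.36 on the log2 scale (exact permutation p = 0.635 and 0.460). M664 decided much of the spread, with the lowest ratio of all tumors for Kdr and Flt1.

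**Figure D3:**
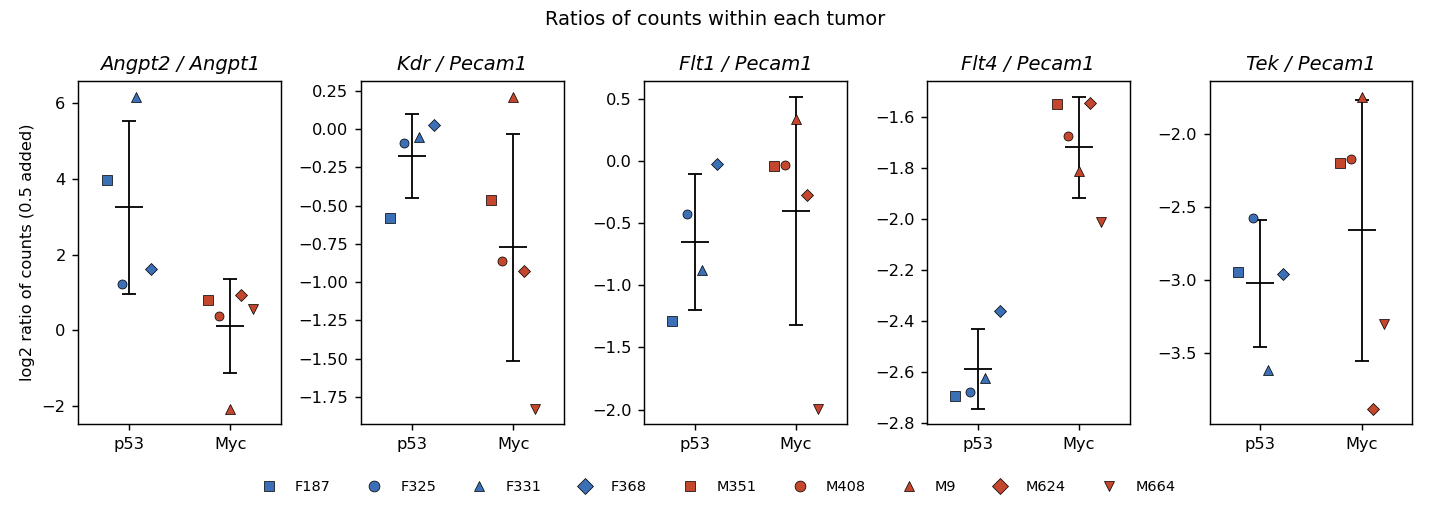
Log2 ratio of counts within each tumor (vertical axes, 0.5 counts added to each gene) for 5 gene pairs in p53-driven (blue) and Myc-knockin (red) tumors. Symbols are tumors and bars the mean and SD. In these counts, with no background subtracted, the groups are apart for Angpt2 to Angpt1 and for Flt4 to Pecam1, and they overlap in the other 3 panels.

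In the wider pathway the gene called by edgeR was Nrp2, a co-receptor that binds VEGF-C and class 3 semaphorins. It was 1384 CPM in F187, 1807 in F325, 1926 in F331 and 2117 in F368. In the Myc-knockin tumors it was 435 CPM in M351, 333 in M408, 359 in M9, 62.0 in M624 and 333 in M664. The groups were far apart, and Nrp2 fell by 2.57 on the log2 scale (standard error 0.52, edgeR adjusted p = 0.0266). It fell by 2.21 without M624 and M664 (adjusted p = 0.0294). The call was lost without F325, F331 or F368 (adjusted p = 0.0813, 0.0918 and 0.0961) and with library size alone (0.0701). Nrp2 was the only gene that edgeR called of 26 further VEGF and Tie pathway genes tested, with 9 higher and 17 lower (9 with an unadjusted p under 0.05) and a median log2 fold change of -0.49. DESeq2 called 6, all lower, namely Nrp2, Angpt4, Esm1, Epas1, Thbs1 and Thbs2. Over all genes tested, edgeR called 5.27% and DESeq2 17.4% in either direction, and 26.8% had an unadjusted edgeR p under 0.05.

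In 4 other genes of that list the groups did not overlap either, with lower values in the Myc-knockin tumors. Over all genes tested, 13% had no overlap. The 4 genes and Angpt4 were named after their values were seen. Esm1, an endothelial gene induced by VEGF, was at 6.53 ± 2.58 CPM (SD, n = 5) against 20.1 ± 10.9 CPM (SD, n = 4), with a log2 fold change of -1.61 (edgeR adjusted p = 0.0509). Epas1, the hypoxia-inducible factor HIF-2α of endothelium, had -1.55 (adjusted p = 0.0755) and its partner Arnt -0.74 (adjusted p = 0.110). Thbs2, an antiangiogenic matrix protein, had -1.62 at 47.9 ± 26.2 CPM (SD, n = 5) against 148 ± 30.5 CPM (SD, n = 4), just short of the adjusted threshold. Angpt4, the ortholog of human angiopoietin 4 and a further Tie2 ligand, was at 1.64 ± 1.83 CPM (SD, n = 5) against 9.30 ± 6.30 CPM (SD, n = 4), with overlap (log2 fold change -2.75, adjusted p = 0.0832). The VEGF-A co-receptor Nrp1 had -0.91 (adjusted p = 0.133).

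Of 19 endothelial markers edgeR called none, 6 were higher and 13 lower, 2 had an unadjusted p under 0.05, and the median log2 fold change was -0.08. The median was -0.57 without M664 and 0.10 without M624, the lowest and highest values with 1 tumor left out. DESeq2 called Sox18 as higher (adjusted p = 0.0298) and S1pr1 as lower (adjusted p = 0.0485). Sox18 was at 241 CPM in M624 and 31.0 in M664, the libraries nearly without Rn7sk. In M351, M408 and M9 it was between 6.37 and 6.78 CPM, below the p53-driven range of 7.54 to 10.5 CPM. Cdh5, the VE-cadherin of endothelial junctions, was at 86.6 ± 55.0 CPM (SD, n = 5) in Myc-knockin and 147 ± 32.6 CPM (SD, n = 4) in p53-driven tumors (log2 fold change -0.75, edgeR adjusted p = 0.323). The summed level of the 19 markers was between 589 and 723 CPM in the p53-driven tumors. It was between 318 and 481 CPM in 4 Myc-knockin tumors and 926 CPM in M664. M664 was also the highest tumor for Pecam1 and Flt4. S1pr1, an endothelial receptor for sphingosine 1-phosphate, was the only one of the 19 without overlap between the groups (log2 fold change -1.36, adjusted p = 0.110). Among all genes tested, 13% had no overlap and 26.8% had an unadjusted edgeR p under 0.05. Of the same genes edgeR called 5.27% and DESeq2 17.4%. Of 10 tested markers of mural cells, which surround vessels and supply Angpt1, edgeR called none and 3 were higher. DESeq2 called Abcc9, as lower (log2 fold change -2.16, adjusted p = 0.0043). Their median log2 fold change was -0.54 and that of the pericyte gene Rgs5 -0.60 (adjusted p = 0.540). Of 6 lymphatic markers 5 were tested and none called by edgeR or DESeq2 (4 higher, median log2 fold change 0.61), with Ccl21a at 0 counts in every tumor. Prox1, the lymphatic master regulator, was at 5.16 ± 6.98 CPM (SD, n = 5) in Myc-knockin and 1.12 ± 0.939 CPM (SD, n = 4) in p53-driven tumors. It was at 16.7 CPM in M9 and 6.77 in M351, the libraries with the largest genomic background, which was not subtracted here. In M408, M624 and M664 it was between 0.152 and 1.25 CPM.

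Markers of other cells moved beside these genes, while edgeR called 5.27% and DESeq2 17.4% of all genes tested. Platelet and megakaryocyte genes, which matter because platelets carry CD31 and angiopoietin 1, summed to 6.66 to 12.2 CPM in the p53-driven tumors. They summed to 22.8 to 32.1 CPM in 4 Myc-knockin tumors and 6.48 CPM in M624, the Myc-knockin tumor with the lowest Angpt1. In M664, which had 32.1 CPM, Pf4 alone was at 28.2 CPM. Genomic background was not subtracted from these sums, and it was an estimated 23.8% of the counts outside the satellites in M9 and 16.6% in M351. Of the 6 genes 3 were tested and none called by edgeR or DESeq2 (all higher, median log2 fold change 1.16), Pf4 among them (log2 fold change 1.36, adjusted p = 0.331). Of 10 osteoblast markers all were lower (median log2 fold change -1.08) and edgeR called 2, Bglap (log2 fold change -5.34, adjusted p = 0.0260) and its paralog Bglap2 (-5.42, 0.0288). DESeq2 called Col1a1 as well (-2.99, adjusted p = 6.05e-06, edgeR 0.0682). Of 8 macrophage markers 6 were lower (median log2 fold change -0.79) and 3 called by both edgeR and DESeq2. The log2 fold changes of these 3 were -2.47 in Csf1r, -2.27 in Cd68 and -2.13 in Tyrobp (edgeR adjusted p between 0.0229 and 0.0392). C1qa (log2 fold change 0.17) and C1qb (0.56) were higher, and both were highest in M664, at 172 and 202 CPM. The summed macrophage markers of M664, at 990 CPM, lay within the p53-driven range of 788 to 1473 CPM. Every remaining Myc-knockin sum, at most 543 CPM, lay below that range. Like that of Nrp2, the edgeR calls of Bglap, Bglap2, Csf1r, Cd68 and Tyrobp were lost without F325, F331 or F368, with adjusted p between 0.0667 and 0.138. In these subsets edgeR called only 8, 6 and 5 genes in all. Skeletal muscle genes (9 tested, 8 lower, median log2 fold change -0.69, none called by edgeR or DESeq2) summed to between 12.2 and 2291 CPM in Myc-knockin and between 27.3 and 5416 CPM in p53-driven tumors (Ckm, log2 fold change -1.33, edgeR adjusted p = 0.630). Their median was 2.16 without F325 and -2.13 without M408. The part of these cells in the values above was not tested.

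Of 15 tested genes that hypoxia induces, as it does Vegfa, the Myc-knockin tumors had higher values in 11 and lower values in 4, with a median log2 fold change of 0.60. The glucose transporter Slc2a1 had 1.74 (adjusted p = 0.0773), with M351, M408, M624 and M664 above all p53-driven tumors and M9 among them. The 1 gene that edgeR called was P4ha1, a collagen prolyl hydroxylase, which fell by 1.73 on the log2 scale (adjusted p = 0.0320, and between 0.0709 and 0.127 without F325, F331 or F368). DESeq2, which called 17.4% of all genes, called P4ha1 as lower and 4 genes as higher. These were Slc2a1, the glycolytic genes Ldha and Pgk1, and the mitophagy gene Bnip3 (adjusted p between 0.0077 and 0.0166). The last 3 were highest in M624 and M664, the libraries nearly without Rn7sk. Ldha was at 1550 and 1251 CPM there, against 77.3 to 242 in the other Myc-knockin and 124 to 203 in p53-driven tumors. Pgk1 was at 124 and 67.2 CPM, against 7.17 to 12.1 and 5.53 to 9.95. Bnip3 was at 65.4 and 49.2 CPM, against 5.58 to 19.1 and 5.13 to 11.9. Ldha, Pgk1, Bnip3, Sox18, Abcc9, Thbs1, C1qa and C1qb were named after their values were seen.

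**Figure D4:**
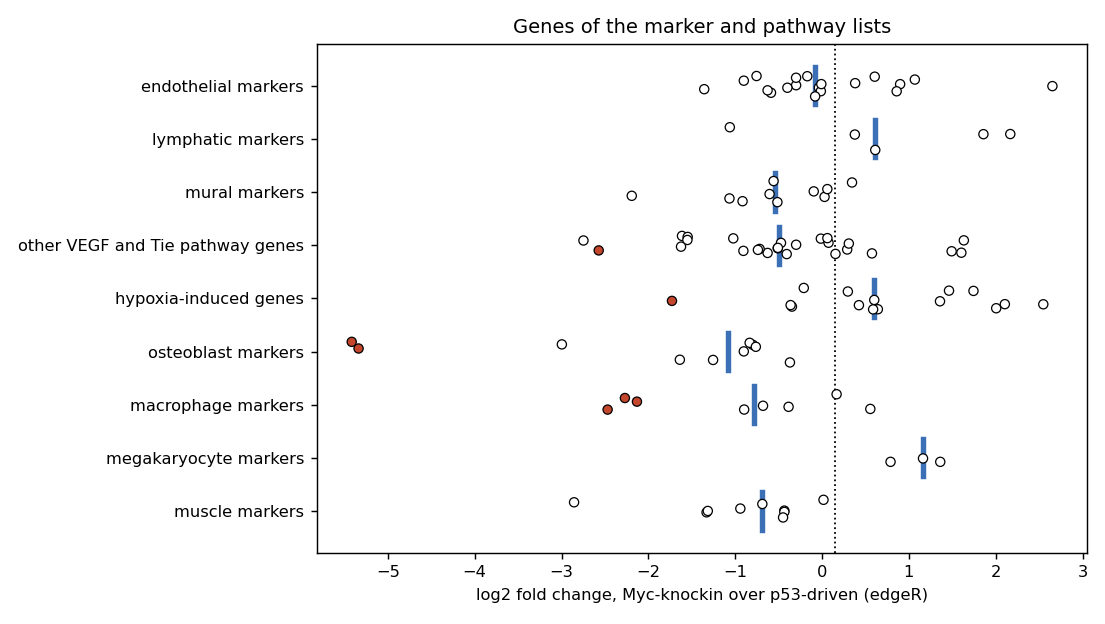
Log2 fold change in edgeR (horizontal axis, Myc-knockin over p53-driven) of the tested genes of 9 marker and pathway lists, with 1 point per gene. Filled points were called by edgeR, blue bars are list medians and the dotted line is the median of all genes tested, 0.14. Filled points lie on the lower side only, Nrp2 among them.

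The genes whose level followed Pecam1 most closely over the 9 tumors, among 9547 genes with a mean of at least 10 CPM, were Igfbp7, Tnfrsf1b, Mir22hg, Kcnk1 and Ifngr1. Their Pearson r of log2 CPM lay between 0.939 and 0.983 and their Spearman rho between 0.867 and 0.983. Igfbp7, a secreted protein of tumor endothelium, had r = 0.983 with all tumors and 0.979 without M624 and M664, the tumors farthest from the median. For the other 4 genes r was then between 0.795 and 0.945. For Vegfa the closest were Tars, Brd1, Pi4ka, Fxyd6 and Senp2, with r between 0.895 and 0.916, and between 0.713 and 0.826 without F368 and M351. These values were selected as the highest over 9 shared libraries and describe them only.

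**Figure D5:**
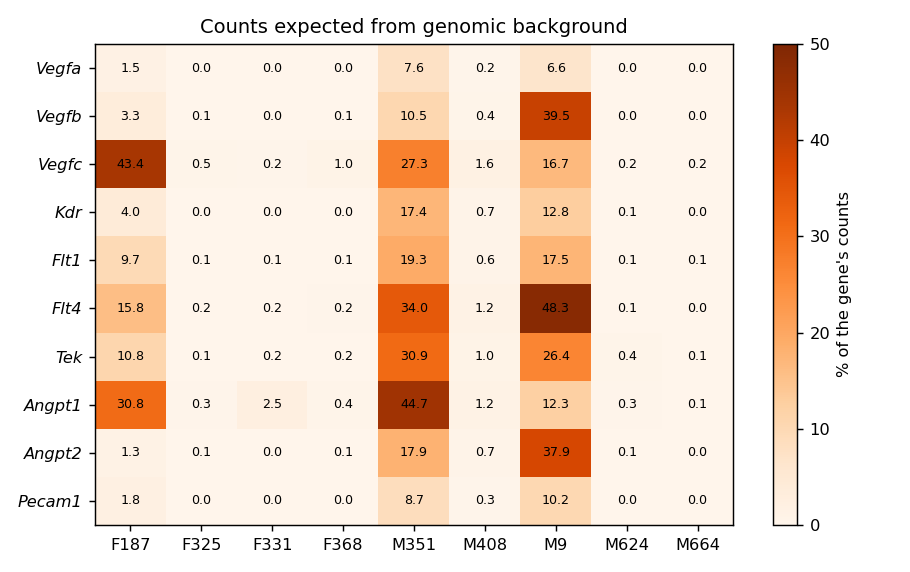
Percent of the counts of each gene (rows) expected from genomic background in each library (columns), with the color scale from 0 to 50%. Vegfa and Pecam1 stay at 10.2% or less, and Flt4, Angpt1, Vegfc, Vegfb and Angpt2 reach between 37.9% and 48.3% in one of F187, M351 and M9.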

How the data were processed

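RNA-Seq of 9 whole tumors was used. The authors deposited raw counts per gene, made with Trim Galore, STAR (mm10) and featureCounts. The paper describes a stranded kit and oligo-dT selection for the libraries. Rn7sk, which lacks a poly(A) tail, was nearly absent only from M624 and M664. Whether all libraries were prepared in the same way was not tested. The strand setting of the counting is not given in the sources used here, and gene-level counts do not separate isoforms. Positions and exon lengths came from GENCODE M21, which holds 55034 of the 55367 genes.

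Counts were compared in R 4.3.3 with edgeR 4.0.16 (TMM, filterByExpr with a minimum count of 10, glmQLFit and glmQLFTest, no covariate), and p values were adjusted by Benjamini-Hochberg over the genes tested. Standard errors are the log2 fold change divided by the root of F. DESeq2, the tool of the study (here version 1.42.0), and limma-voom (limma 3.58.1) were alternatives. The floor of 3 counts was between 0.114 and 2.39 CPM, which covers counting error only. Nothing says whether the tumors came from separate animals, and p values measure the spread between these tumors only.

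Genomic background was the counts per kilobase of exon on 1539 chemosensory receptor genes. Satellite repeats were 11 genes. Ratios had 0.5 counts added. Named were the 10 genes, Myc, list genes called (up to 4 per direction) and 1 defining gene per list, and the 5 genes most like Pecam1 and Vegfa. The genes, lists and tests were chosen with earlier results of these data known. The edgeR and DESeq2 fits were tested on simulated counts and the permutation test on made-up values.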

Additional observations from a re-analysis of the deposited data

Results flagged for a closer look

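Of 30 sets of values tested for a sample far from the others (10 genes and 5 ratios in each group), 2 were flagged, and chance flags about 1 in 20. The log2 ratio of Angpt2 to Angpt1 was -2.07 in M9, against 0.37 to 0.95 in the other Myc-knockin tumors. The log2 ratio of Flt1 to Pecam1 was -1.99 in M664, against -0.28 to 0.34 in the other Myc-knockin tumors.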

How the results depend on the processing

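No paired analysis was possible because the columns of the table carry no replicate numbers. The labels also name no pairs, and the groups are tumors of different genotypes. In place of 809 genes called, unscaled library sizes gave 136, keeping every gene with 1 or more counts 494, limma-voom 1663, DESeq2 2670 and leaving out the satellite libraries 4595. With single tumors left out the count was 5 without F368, 6 without F331, 8 without F325, 335 without F187, 371 without M351, 375 without M624 and 1588 without M9. Tek changed sign with unscaled library sizes (-0.20), no filter (-0.12), limma-voom (-0.078), background subtracted (-0.0070), without the satellite libraries (-0.37) and without F331, F368, M408, M9 or M664, lying between -0.16 and 0.38 when 1 tumor was left out. Vegfb (-0.052) and Flt1 (0.069) did so without M624 and M664, Prox1 (-0.0075) without the satellite libraries and Rgs5 (0.27) in limma-voom. Ckm lay between -2.68 and 2.57 with 1 tumor left out, above 0 only without F325. Without the satellite libraries the log2 differences of the ratios to Pecam1 moved to -1.34 for Kdr, -0.69 for Flt1 and -0.54 for Tek. Against the 19 endothelial markers in place of Pecam1, Kdr was at -0.95 (exact permutation p = 0.0317) and Flt1 at -0.098. The cause of these shifts was not tested. The ratios of Angpt2 to Angpt1 and Flt4 to Pecam1 kept their direction and an unadjusted p under 0.05 in each setting that was tested. Adjusted over the ratios compared they passed with 2 counts added (0.0397), and not with background subtracted (0.0794). They did not pass with single tumors left out (0.0714 to 0.0893), where each exact p was the smallest that the test can give with fewer tumors. Flt4 against the endothelial markers did not pass either (0.0635), also at its smallest exact p. Without M624 and M664 the log2 differences of the 2 ratios were -3.55 and 0.91, where no exact test can go below 0.0571.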
